A study of Homo sapiens with 8 samples.

Results

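The genes described here are 6 of the 27404 genes in the all-read table of a SLAM-seq experiment in NALM6 cells, an established line of human B-cell precursor acute lymphoblastic leukaemia. They are UNC45B, SLCO5A1, ANKRD30BL, AAMDC, PPEF2 and the microRNA gene MIR663B. They were listed under 7 names, since C11orf67 is an earlier symbol of AAMDC. They were chosen because earlier results on these libraries showed very high values that peaked in 2 libraries of the induced mutant and in 1 of the induced wild type. Their levels, conversion rates and group differences are therefore descriptions. Where counts of them past a threshold are given, these come from the contrasts that chose them, and nothing is read from them.

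The experiment held 8 libraries. In the induced mutant libraries (A and B), cells engineered with HMGN1 carrying the S20,24E substitutions, which the labels call deficient in nucleosome binding, received doxycycline. In the induced wild type libraries (A, B and C), cells engineered with wild-type HMGN1 received doxycycline, and in the vehicle libraries (A, B and C) that wild-type line received vehicle. Doxycycline was used at 100 ng/ml for 6 h, and all 8 cultures had 4-thiouridine at 100 µM for the last 5 h. The mutant line has no vehicle libraries analysed here, so line and doxycycline differ together between induced mutant and vehicle. What drives the transgene is not stated in the labels. The labels call the replicates biological without saying that they were separate cultures, so the spread between them may be partly technical.

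SLAM-seq adds 4-thiouridine to growing cells, so that newly made RNA carries it in place of some uridines. After alkylation these positions are read as C where the genome has T, and the share of converted bases marks new RNA. Ribosomal RNA is the most abundant RNA of a cell, and selection for polyadenylated RNA removes most of it. Diverged copies of ribosomal RNA genes lie scattered in the human genome, some of them inside other genes, where a read from a functional copy can be placed with mismatches.

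The depth, in M reads, was 10.4 and 11.6 in the induced mutant, 7.99 to 14.4 in the induced wild type and 8.89 to 17.7 in vehicle libraries. HMGN1, the induced gene, had 223 and 199.5 CPM in the induced mutant, 252, 217 and 317 CPM in the induced wild type, and 191, 153 and 145 CPM in vehicle libraries, and the induced libraries all lay above vehicle. Markers of precursor B cells were present, with a summed level over 9 genes of 1403 and 1554 CPM in the induced mutant, 1471 to 1639 CPM in the induced wild type and 1584 to 1619 CPM in vehicle libraries. Of 11 T-cell, myeloid and erythroid markers, 4 were at 0 in all libraries and CSF1R carried nearly the whole sum, with 338 to 512 CPM. Since the libraries are bulk samples scaled to their totals, fewer cells of a type and less RNA per cell cannot be told apart.

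The sequences shown here are of features inside ANKRD30BL, an ankyrin repeat domain gene on chromosome 2, and of their relatives elsewhere. RefSeq (GRCh38.p14) places 2 ribosomal RNA pseudogenes and MIR663B inside ANKRD30BL. RNA5-8SP5, a copy of the 5.8S RNA gene of 152 bases, lies on the minus strand at chr2:132253154-132253305 in the first intron of the long ANKRD30BL transcript. It is shown with the functional 5.8S RNA of RNA5-8SN2 (chr21:8256781-8256933, plus strand), both from GENCODE 29 (GRCh38), and capitals mark positions where the pseudogene has T and the functional gene has C.
RNA5-8SP5: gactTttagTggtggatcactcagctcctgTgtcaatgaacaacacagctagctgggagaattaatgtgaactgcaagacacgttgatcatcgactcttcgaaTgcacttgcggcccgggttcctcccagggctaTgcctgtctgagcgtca
RNA5-8SN2: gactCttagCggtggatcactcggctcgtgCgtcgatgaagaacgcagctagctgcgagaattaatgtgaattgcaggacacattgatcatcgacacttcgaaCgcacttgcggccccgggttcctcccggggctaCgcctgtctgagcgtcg
The alignment had 135 identical positions in 153 columns (88.2%), 17 mismatches and 1 gap. Of the 39 T positions in the pseudogene, 5 (12.8%) were C in the functional gene. A read from the functional gene placed on this copy would show these positions in the way a converted base appears, and whether such reads are in the libraries was not tested.

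MIR663B lies at chr2:132256966-132257080, minus strand, in the same intron. Its hairpin is shown in the letters of RefSeq (GRCh38.p14) with the mature microRNA in capitals, followed by the mature sequences of hsa-miR-663b and hsa-miR-663a with the seed, bases 2 to 8, in capitals. The gene of hsa-miR-663a is on chromosome 20, and it is shown because MIR663A was highest in the same 3 libraries.
MIR663B hairpin: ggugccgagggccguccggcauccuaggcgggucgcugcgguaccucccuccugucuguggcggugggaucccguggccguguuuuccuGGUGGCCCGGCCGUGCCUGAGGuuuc
hsa-miR-663b: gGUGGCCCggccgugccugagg
hsa-miR-663a: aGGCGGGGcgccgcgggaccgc
The seeds differ, GUGGCCC in hsa-miR-663b and GGCGGGG in hsa-miR-663a, and the mature sequences had 8 identical positions in 22 columns (36.4%). The place of each mature sequence in its hairpin was not compared, so the seeds may not be matching stretches. The hairpins aligned with 83 identical positions in 115 columns (72.2%), 10 mismatches and 22 gap columns.

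All-read values are given as CPM, counts scaled to the depth of the library, with no correction for gene length, and a gene takes its transcript row with the highest mean. UNC45B, a chaperone of muscle myosin, had 2891 and 1623 CPM in induced mutant A and B, 737, 2421 and 929 CPM in induced wild type (A, B, C), and 518, 465 and 632 CPM in vehicle (A, B, C). Induced mutant A, induced wild type B and induced mutant B were the 3 highest libraries, and each induced library lay above each vehicle library. The mean was 2257 ± 896 CPM in the induced mutant (SD, n = 2), 1362 ± 922 CPM in the induced wild type (SD, n = 3) and 538 ± 85.8 CPM in vehicle libraries (SD, n = 3). The log2 difference of induced mutant minus vehicle was 2.02 (SE 0.44).

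SLCO5A1, an organic anion transporter family gene, had 6593 and 3869 CPM in induced mutant A and B, 1931, 4477 and 2498 CPM in induced wild type (A, B, C), and 1225, 1014 and 1568 CPM in vehicle (A, B, C). The order of libraries was the same as for UNC45B. In induced mutant A it held 68359 reads and was second of 27404 genes by CPM. AAMDC, named for its part in fat cell differentiation and its Mth938 domain, had 1692 and 941 CPM in induced mutant A and B, 545, 993 and 663 CPM in induced wild type (A, B, C), and 287, 229.7 and 431 CPM in vehicle (A, B, C). The order was again the same, with induced wild type B between the mutant libraries. The log2 differences of induced mutant minus vehicle were 2.01 (SE 0.37) for SLCO5A1 and 2.04 (SE 0.34) for AAMDC.

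ANKRD30BL stood apart in induced mutant A. It had 4705 and 1471 CPM in induced mutant A and B, 624, 1098 and 865 CPM in induced wild type (A, B, C), and 497, 527 and 546 CPM in vehicle (A, B, C). Both induced mutant libraries lay above the induced wild type, and the 3 vehicle libraries were the lowest. The log2 difference of induced mutant minus vehicle was 2.33 (SE 0.41), 1.49 (SE 0.28) without induced mutant A and 3.17 (SE 0.29) without induced mutant B.

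PPEF2, a protein phosphatase with calcium-binding EF-hands known from photoreceptors, had 124 and 60.2 CPM in induced mutant A and B, 32.7, 58.2 and 42.4 CPM in induced wild type (A, B, C), and 15.97, 17.6 and 26.6 CPM in vehicle (A, B, C). MIR663B had 7.72 and 8.88 CPM in induced mutant A and B, 2.99, 4.51 and 2.90 CPM in induced wild type (A, B, C), and 2.59, 1.82 and 2.87 CPM in vehicle (A, B, C). MIR663B was highest in the same 3 libraries at far fewer reads, 80 and 103 reads in the induced mutant, 36 to 43 in the induced wild type and 21 to 51 in vehicle libraries. It was not an abundant gene, with a rank between 6140 and 11206 by CPM, and PPEF2 ranked between 464 and 4291. The log2 difference of induced mutant minus vehicle was 2.08 (SE 0.34) for PPEF2 and 1.45 (SE 0.27) for MIR663B.

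**Figure D1:**
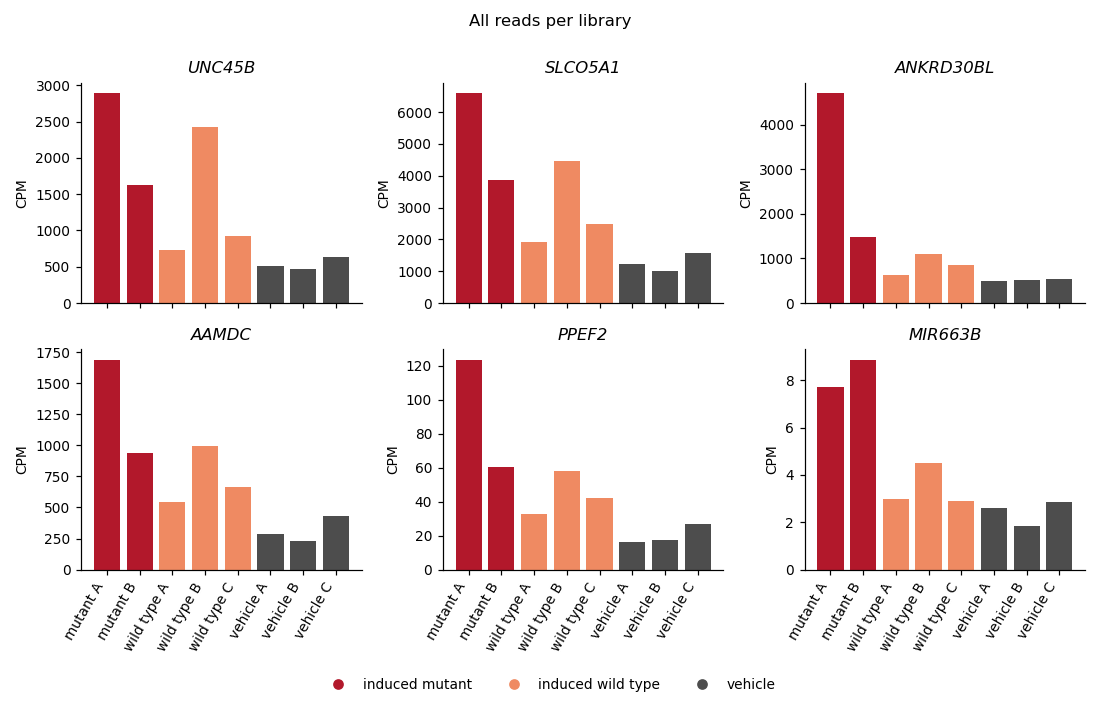
All-read CPM of the 6 genes, a bar for each library, in linear panels that start at 0, red for induced mutant, orange for induced wild type and grey for vehicle. Induced mutant A was highest for all but MIR663B, and induced wild type B was the highest of its group for all 6.

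Between induced mutant and vehicle the groups did not overlap for all 6 genes, where 4.6% of the 12456 genes tested were higher without overlap. Between induced wild type and vehicle they did not overlap for all 6, where 2.5% of all genes were higher without overlap, and for MIR663B the gap was 2.90 against 2.87 CPM. Between induced mutant and induced wild type they did not overlap for 3, ANKRD30BL, PPEF2 and MIR663B, beside 1.8% of all genes. These shares are printed as background only, since the genes were chosen on the same values. By limma across all genes, with Benjamini-Hochberg adjustment, 0 of the 6 passed in induced mutant against vehicle, beside 0.0321% of all genes. The count was also 0 in induced wild type against vehicle, beside 0% of all genes (116 at an unadjusted p under 0.05), and in induced mutant against induced wild type, beside 0.0321%. By limma without induced wild type B, 1 of the 6 passed in induced mutant against vehicle, where 13 of 12456 genes passed. By edgeR 0 of the 6 passed in induced mutant against vehicle, beside 0.0241% of all genes, in induced wild type against vehicle, beside 0% (235 at an unadjusted p under 0.05), and in induced mutant against induced wild type, beside 0.0241%. By DESeq2 on the recovered reads all 6 passed in induced mutant against vehicle, beside 0.594% of all genes, 0 in induced wild type against vehicle, beside 0.0161%, and 1 in induced mutant against induced wild type, beside 0.104%.

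The median log2 difference over the 6 genes was 2.03 for induced mutant minus vehicle, 1.13 for induced wild type minus vehicle and 0.93 for induced mutant minus induced wild type. The medians of all genes tested were -0.04, 0.09 and -0.12 in the same order. The comparisons share libraries. Of 12456 genes, ANKRD30BL had the highest difference of induced mutant minus vehicle, and PPEF2, AAMDC, UNC45B and SLCO5A1 were at ranks 4, 6, 8 and 10.

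Together the 6 genes took 3.86% and 1.84% of the reads assigned to genes in induced mutant A and B. They took 0.872%, 2.11% and 1.14% in induced wild type (A, B, C), and 0.563%, 0.507% and 0.725% in vehicle (A, B, C). The reads of UNC45B, AAMDC and PPEF2 were set against those of SLCO5A1, and the proportion was most even for AAMDC. UNC45B had 37.2% to 54.1% of the SLCO5A1 reads over the 8 libraries, AAMDC 22.2% to 28.2% and PPEF2 1.30% to 1.88%. ANKRD30BL was less even, with 71.4% in induced mutant A and 24.5% to 52.0% in the other libraries.

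Over the 8 libraries, the Pearson correlation of log2(CPM + 1) between pairs of the 6 genes was 0.85 to 0.99 with a median of 0.91 over 15 pairs. Spearman correlations were 0.90 to 1.00 with a median of 0.95. The genes were chosen for a shared peak, so these values describe the choice. Without induced mutant A and B, the libraries farthest from the median of the mean profile, Pearson correlations were 0.80 to 0.98 over 6 libraries, with a median of 0.93. The mean profile had a Pearson correlation of -0.30 with depth (Spearman -0.17) and of 0.39 with HMGN1 (Spearman 0.55). Without the libraries farthest from the median of each measure these were -0.03 and 0.53.

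In converted reads, deposited as FPKM, 5 of the 6 genes had a row. UNC45B had 1993 and 1431 FPKM in induced mutant A and B, 543, 2078 and 550.4 FPKM in the induced wild type (A, B, C), and 653, 390.5 and 438 FPKM in vehicle (A, B, C). It was first of 6990 genes in each of the 8 libraries, and induced wild type B was its highest library. ANKRD30BL had 1952 and 765 FPKM in induced mutant A and B, 265, 610.2 and 331 FPKM in the induced wild type (A, B, C), and 304, 278 and 226 FPKM in vehicle (A, B, C). SLCO5A1 had 612 and 588 FPKM in induced mutant A and B, 195, 551 and 220.5 FPKM in the induced wild type (A, B, C), and 200, 134 and 175 FPKM in vehicle (A, B, C). For all 3 genes the induced mutant lay above vehicle, and induced wild type A overlapped it.

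**Figure D2:**
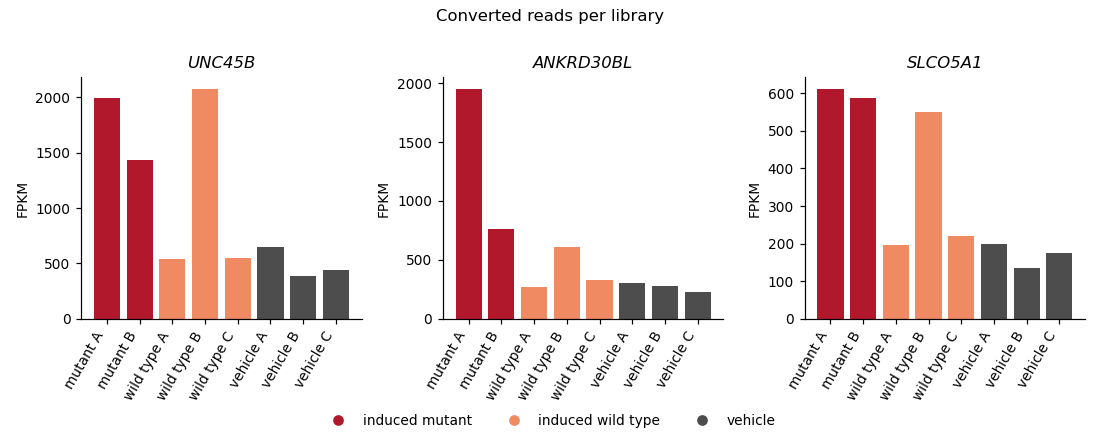
Converted-read FPKM of UNC45B, ANKRD30BL and SLCO5A1, a bar for each library, in linear panels that start at 0, coloured by group. Both induced mutant libraries and induced wild type B stand above the other 5 libraries, which lie at 390.5 to 653 FPKM for UNC45B.

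The converted rows of AAMDC and PPEF2 could not show this pattern. The AAMDC row there is the short transcript described below, which held 9.74 to 17.1 CPM in all reads. It had 3.86 and 2.28 FPKM in induced mutant A and B, 1.56, 0 and 4.10 FPKM in the induced wild type (A, B, C), and 2.62, 2.54 and 2.80 FPKM in vehicle (A, B, C). PPEF2 was listed at 0 in all 8 libraries, although it had 142 to 1282 reads and a conversion rate of 6.37% to 7.11% in the all-read table. MIR663B had no row there.

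Of the 4 genes with a mean of at least 1 FPKM, the groups of induced mutant and vehicle did not overlap for 3, beside 20.4% of 5736 genes tested that were higher without overlap. By limma with Benjamini-Hochberg adjustment 2 of the 4, ANKRD30BL and SLCO5A1, passed in induced mutant against vehicle, beside 0.401% of all genes, in the contrast on which they were chosen. With median centring, a pseudocount of 0.1 or a prior spread that does not follow the level, 0 of the 4 passed. The count was also 0 without induced mutant A or without vehicle B, 1 without induced mutant B, and 3 without induced wild type B or without vehicle A. The count over all genes was 23. It was 0 without induced mutant A or vehicle B, 1 without induced mutant B, 9 without induced wild type A, 35 without vehicle A and 68 without vehicle C. For induced wild type against vehicle 0 of 4 passed, beside 0% of all genes (455 at an unadjusted p under 0.05). The groups did not overlap for 0 of 4, beside 10.7% of all genes. For induced mutant against induced wild type 0 of 4 passed, beside 0% of all genes (169 at an unadjusted p under 0.05), and 2 of 4 did not overlap, beside 5.18%. Without induced wild type B, 3 of the 4 passed, and these were the 3 genes called in the whole table. The genes were chosen for a peak that includes induced wild type B. Leaving it out widens this contrast by the choice, and nothing is read from the count. The log2 differences of induced mutant minus vehicle were 2.19 (SE 0.36) for ANKRD30BL, 1.83 (SE 0.34) for SLCO5A1, 1.81 (SE 0.43) for UNC45B and 0.13 (SE 0.56) for AAMDC, while the median of all genes was 0.17.

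The conversion rate of a transcript is deposited as a fraction. Among transcript rows with a single read and a rate above 0, 98.7% to 99.9% by library had a rate below 1, so the rate counts bases and not whole reads. The median rate over 1051 genes with at least 500 reads in every library differed between libraries. It was 3.48% and 2.58% in induced mutant A and B, 3.36%, 2.50% and 3.88% in induced wild type (A, B, C), and 2.08%, 2.69% and 3.42% in vehicle (A, B, C).

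The rates of the 5 genes with at least 100 reads in every library, all but MIR663B, varied less between libraries. UNC45B had 5.76% and 5.55% in induced mutant A and B, 5.74%, 5.81% and 5.65% in induced wild type (A, B, C), and 5.43%, 5.66% and 5.75% in vehicle (A, B, C). Its coefficient of variation (CV) over libraries was 2.22%, the third lowest of 1020 genes with 500 reads in every library and a rate in each. The median CV of these genes was 20.4%. SLCO5A1 had rates of 2.55% to 2.88% (CV 3.79%), AAMDC of 1.83% to 2.03% (CV 3.87%) and ANKRD30BL of 10.2% to 12.05% (CV 6.66%). PPEF2, with fewer reads, had 6.37% to 7.11% (CV 4.11%), where the median CV of 4386 genes with 100 reads in every library was 17.2%. Of the 1020 genes, 34 (3.33%) had a CV under 7%, and UNC45B, SLCO5A1, AAMDC and ANKRD30BL were among them. The cut of 7% lies just above the CV of ANKRD30BL, so that these genes lie under it follows from the cut.

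MIR663B had 13.3% to 17.2% from 21 to 103 reads. The rates also differed between the genes by far more than between libraries. ANKRD30BL, at a mean of 11.3%, was above 99.4% of the 1020 genes, and AAMDC, at a mean of 1.93%, was above 27.7%. Over the 8 libraries the Pearson correlation of a gene's rate with the library median was 0.94 for the median gene of the 1020. It was 0.54 for UNC45B, 0.50 for AAMDC, 0.29 for ANKRD30BL and -0.30 for SLCO5A1. PPEF2, not among the 1020, had -0.68, where the median gene of the 4386 with 100 reads in every library had 0.88. What sets these rates was not tested.

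**Figure D3:**
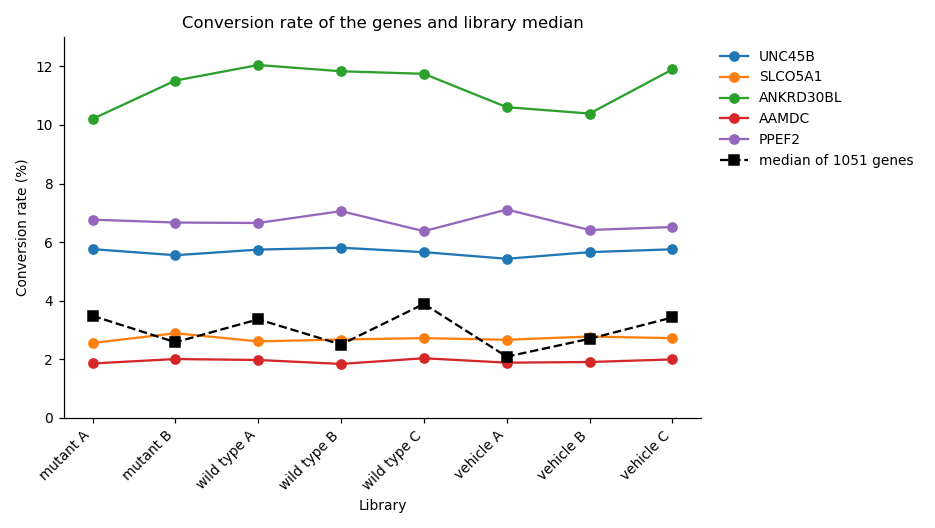
Conversion rate in percent of 5 of the genes in each library, with the median over 1051 genes as a dashed line. The lines of UNC45B, SLCO5A1, AAMDC and PPEF2 are near level while the median runs between 2.08% and 3.88%.

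**Figure D4:**
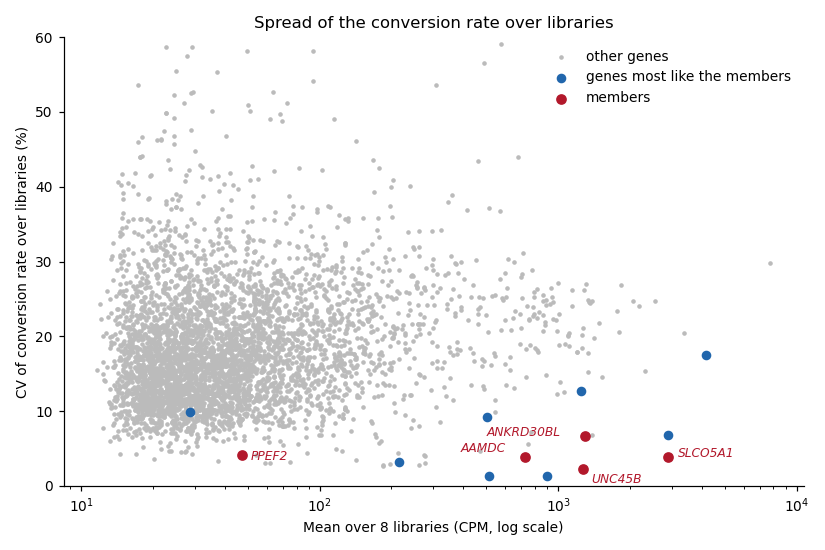
CV of the conversion rate over the 8 libraries, in percent, against the mean CPM on a log axis, for 4386 genes with at least 100 reads in every library. The 5 genes drawn in red lie at 2.22% to 6.66%, the genes most like them are blue, all other genes are grey, and 24 genes above 60% are not drawn.

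Transcript rows of the same gene differed for AAMDC and ANKRD30BL. UNC45B (chr17:35147817-35189345, plus strand) had identical CPM in its 4 rows. The 3 rows of SLCO5A1 (chromosome 8, minus strand) differed by at most 0.21 CPM in a library. AAMDC had 7 rows of 2 kinds. The 3 rows whose GENCODE 29 transcripts end between positions 77900714 and 77900785 of chromosome 11 (GRCh38) held 229.7 to 1692 CPM. The 4 rows whose transcripts end by position 77872361 held 9.74 to 17.1 CPM, with the highest value in vehicle A, and conversion rates of 1.57% to 4.09%. The row that the all-read table names C11orf67 is one of these short ones, and it is also the only AAMDC row of the converted table. The long rows held 174 and 82.7 times the CPM of the short ones in induced mutant A and B, 47.5, 88.1 and 59.8 times in induced wild type (A, B, C), and 16.8, 21.3 and 38.5 times in vehicle (A, B, C).

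The stretch found in the long AAMDC transcripts alone, chr11:77872362-77900785, spans 28424 bases, of which 352 are exon in the transcript NR_133637. INTS4, a subunit gene of the Integrator complex, runs over most of it on the minus strand. INTS4 had 1177 and 689 CPM in induced mutant A and B, 325, 846 and 432 CPM in induced wild type (A, B, C), and 217, 168 and 255 CPM in vehicle (A, B, C). That is 59.1% to 85.2% of the long AAMDC rows. INTS4 also had a near-constant conversion rate of 3.30% to 3.44%, whereas that of AAMDC was 1.83% to 2.03%. The use of strand in counting is not given in the sources used here, so reads of the 2 genes cannot be told apart.

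ANKRD30BL had 2 rows. The row NR_027020, whose transcript runs over chr2:132147591-132257969, held 497 to 4705 CPM. The row NR_027019, whose transcript starts at position 132161955, held 0 to 0.145 CPM. The stretch of 96014 bases that the long transcript alone covers holds 1 exon of 441 bases, RNA5-8SP5, the 18S RNA pseudogene LOC110467533 (chr2:132254347-132256195, 1849 bases) and MIR663B. The 3 features lie within the first intron and share 0 bases with an exon. They start 4664, 1774 and 889 bases from the transcript's first base, in the order given. Which of them the reads came from was not tested.

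**Figure D5:**
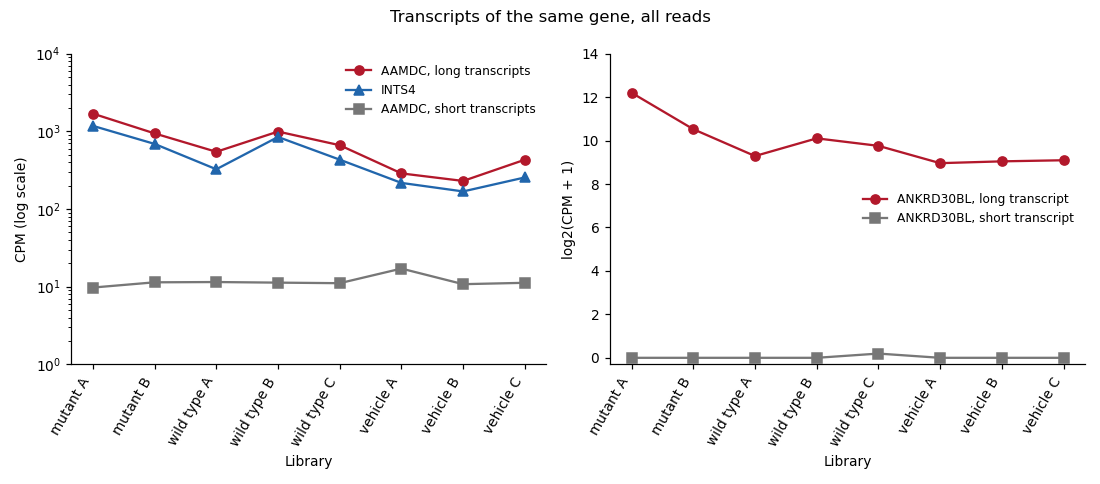
All-read levels of long and short transcripts of AAMDC with INTS4 (left, CPM on a log axis) and of ANKRD30BL (right, log2(CPM + 1)) in each library. The short AAMDC rows stay at 9.74 to 17.1 CPM and the short ANKRD30BL row at 0 to 0.145 CPM, while the long rows vary with the library.

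Ribosomal RNA-like sequence was looked for in these genes in 2 ways. Sequences of the 5.8S, 5S and mitochondrial 12S and 16S RNAs, and a transcript of 923 bases antisense to part of the 18S RNA, were aligned with blastn to all GENCODE 29 transcripts. A match of at least 100 bases at 80% identity was found in 0 of the 6 genes and in 137 of 57133 genes (0.24%). It was also 0 of 6 with 50 bases, 200 bases or 90% identity. The rest of the 18S and all of the 28S RNA were not used here, and spliced transcripts leave out introns, so no match says only that these letters are not in the exons.

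Of the genes with a match, 22 were in the all-read table and 1, MTRNR2L8, had a mean of at least 1 CPM. MTRNR2L8, a nuclear copy of mitochondrial 16S RNA, had 58.9 and 43.9 CPM in the induced mutant, 43.2, 33.3 and 49.5 CPM in the induced wild type, and 30.5, 43.8 and 47.0 CPM in vehicle libraries. The groups overlapped and induced wild type B was low, and the log2 difference of induced mutant minus vehicle was 0.35 beside a median of -0.04 over all genes. The other 4 of the longest matches, MTRNR2L1, MTRNR2L10, MTRNR2L6 and MTRNR2L4, had at most 0.675 CPM in any library. Of the list of mitochondrial rRNA-like genes, 3 had a mean of at least 1 CPM, MTRNR2L8, MTRNR2L9 and MTRNR2L2. MTRNR2L9 had 19.1 and 17.6 CPM in the induced mutant and 11.5 to 14.03 CPM in vehicle, without overlap. MTRNR2L2 overlapped, with 24.9 and 16.5 CPM in the induced mutant and 6.75 to 17.3 CPM in vehicle. Their induced wild type values were 13.3 to 17.5 and 9.02 to 23.6 CPM. Correlations of the 3 with the mean profile were 0.426, 0.795 and 0.478.

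By RefSeq annotation, an rRNA pseudogene lies within 1 of the 6 genes, ANKRD30BL, and within 4 of 26834 genes of the table (0.0149%). Pseudogenes of the 5S and mitochondrial RNAs were not counted, so these shares do not cover them. CTNNAL1, an alpha-catulin gene with a copy of 5.8S RNA, had 21.7 and 20.8 CPM in the induced mutant, 22.5, 20.7 and 23.1 CPM in the induced wild type, and 19.6, 18.1 and 20.3 CPM in vehicle libraries. Its induced libraries all lay above vehicle, and the whole range over libraries was 18.1 to 23.1 CPM. CEACAM21, a cell adhesion gene with a copy of 28S RNA, had 18.5 and 15.3 CPM in the induced mutant, 21.8, 13.9 and 26.7 CPM in the induced wild type, and 14.4, 20.5 and 24.1 CPM in vehicle libraries. TEX101, a germ cell protein gene with a copy of 28S RNA, had at most 0.225 CPM, too low to show a profile. UNC45B, SLCO5A1, AAMDC and PPEF2 hold none of the rRNA pseudogenes counted. Exon bases shared with more than 100 other genes, as interspersed repeats are, made up 331 bases of a SLCO5A1 transcript (3.65%), 331 bases of PPEF2 (9.70%) and 140 bases of the AAMDC transcript NR_133637 (19.3%), and 0 bases of UNC45B, ANKRD30BL and MIR663B.

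Of the list of ribosomal DNA transcripts, 4 genes had rows in the all-read table, RNA45SN5, RNA28SN5, RNA18SN5 and RNA5-8SN5. They were at 0 in all libraries, as was MIR6724-1. Of the 5S RNA genes matched above, RNA5S9 had 1.16 and 0.172 CPM in the induced mutant. It had 0.278, 0 and 0.0725 CPM in the induced wild type, and 0.225, 0.260 and 0.282 CPM in vehicle libraries. The other 5S RNA genes matched were at 0 in all libraries. MIR663A had 53.9 and 50.7 CPM in the induced mutant, 20.9, 64.7 and 21.5 CPM in the induced wild type, and 18.3, 12.6 and 23.0 CPM in vehicle libraries. Its host gene MIR663AHG had 259 and 280.4 CPM in the induced mutant, 117, 285 and 109 CPM in the induced wild type, and 93.8, 65.6 and 115 CPM in vehicle libraries. In both, induced wild type B was the highest library. The Pearson correlation with the mean profile of the 6 genes was 0.91 for MIR663A and 0.92 for MIR663AHG.

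Of 15 close relatives of the 6 genes, 5 had a mean of at least 1 CPM, and none of these had a correlation of 0.9 or more with the mean profile (median -0.27). UNC45A, the paralogue of UNC45B that most cells express, had 53.5 and 68.9 CPM in the induced mutant, 63.6, 69.5 and 64.0 CPM in the induced wild type, and 70.8, 74.5 and 71.4 CPM in vehicle libraries. ANKRD30B had 11.7 and 7.499 CPM in the induced mutant, 9.89 to 25.1 CPM in the induced wild type and 7.65 to 17.6 CPM in vehicle libraries. PPP5C, a related phosphatase, had 44.6 to 60.1 CPM in the induced mutant, 45.2 to 69.1 CPM in the induced wild type and 29.5 to 57.5 CPM in vehicle libraries. PPEF1 had at most 1.81 CPM, SLCO4A1 at most 10.1 CPM, and the other SLCO genes and ANKRD30A at most 0.626 CPM.

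Skeletal muscle and photoreceptor genes were measured because UNC45B and PPEF2 are known from those tissues. Of 17 skeletal muscle genes, 4 had a mean of at least 1 CPM, the highest being TTN with 27.3 to 30.1 CPM in the induced mutant, 29.2 to 58.5 CPM in the induced wild type and 20.1 to 42.6 CPM in vehicle libraries. MYH3, NEB and ACTA1 had at most 4.27 CPM. Of 13 photoreceptor genes, PDE6A, PDE6B and NRL had a mean of at least 1 CPM, and PDE6A reached 5.43 CPM. None of these 7 genes had a correlation of 0.9 or more with the mean profile.

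Of 12450 other genes with a mean of at least 1 CPM, 23 (0.185%) had a Pearson correlation of at least 0.9 with the mean profile over 8 libraries. The 10 most alike were HFM1 (0.99), RYR2, INTS4, DLG2, PHKB, RN7SL1, a transcript known by its accession NR_106735, PID1, NOTCH2 and C8orf34-AS1 (0.96). All 10 were highest in induced mutant A, and in 9 each induced library lay above each vehicle library. The mean profile has both traits and the 10 were picked for likeness to it, so these counts describe the choice. HFM1, a meiotic DNA helicase gene, had 10657 and 5114 CPM in the induced mutant, 2625, 6211 and 3596 CPM in the induced wild type, and 1617, 1466 and 2235 CPM in vehicle libraries. DLG2, a synaptic scaffold gene, had 6357 and 3670.4 CPM in the induced mutant, 1894, 5127 and 2370.3 CPM in the induced wild type, and 1148, 1014 and 1515 CPM in vehicle libraries. RYR2, the cardiac calcium release channel, and NOTCH2, a receptor of the Notch pathway, reached 66.8 and 422 CPM in induced mutant A.

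Conversion rates differed widely between these genes, and for some of them little between libraries. DLG2 had 0.214% to 0.262%, NR_106735 13.7% to 14.3% and NOTCH2 11.1% to 12.2%. PHKB, a subunit of phosphorylase kinase, had 26.5% to 34.8%, the highest mean of the 1020 genes. The lowest CVs of the 1020 genes were those of NR_106735 (1.28%) and INTS4 (1.37%), followed by UNC45B. HFM1, at 0.331% to 0.535%, had a CV of 17.6%, near the median of all genes, and PID1, at 3.75% to 5.32%, had a CV of 12.7%. RN7SL1 had 0.386% to 2.48%.

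RN7SL1, an RNA of the signal recognition particle, had 25.3 and 9.40 CPM in the induced mutant, 5.56, 11.1 and 6.96 CPM in the induced wild type, and 2.92, 3.30 and 3.66 CPM in vehicle libraries. Of 13 structured RNAs in the table, most of which lack a poly(A) tail, 6 had a mean of at least 1 CPM. All 6 were highest in induced mutant A, and 5, all but RMRP, were highest in the same 3 libraries as the 6 genes. RN7SL2, named after its values were seen, had 10.03 and 3.62 CPM in the induced mutant, 1.60, 4.51 and 2.68 CPM in the induced wild type, and 1.46, 1.30 and 0.789 CPM in vehicle libraries (correlation 0.93 with the mean profile). RN7SK had 25.1 and 4.83 CPM in the induced mutant, 2.54 to 4.63 CPM in the induced wild type and 2.70 to 3.27 CPM in vehicle libraries. RPPH1, the RNA of ribonuclease P, had 31.7 and 5.26 CPM in the induced mutant, 4.06 to 6.01 CPM in the induced wild type and 2.02 to 3.56 CPM in vehicle libraries. SNORD3A had 22.6 and 4.48 CPM in the induced mutant, 1.96 to 5.26 CPM in the induced wild type and 1.86 to 3.94 CPM in vehicle libraries. The sum over the 13 was 139 and 31.9 CPM in the induced mutant, 20.6, 34.3 and 22.2 CPM in the induced wild type, and 15.3, 17.4 and 16.3 CPM in vehicle libraries. The sum was highest in the same 3 libraries as the 6 genes, and its part in their levels was not tested. Over the 8 libraries RN7SK had a Pearson correlation of 0.81 with the mean profile (Spearman 0.74), and 0.66 without the 2 libraries farthest from its median. RefSeq places RN7SKP29, a pseudogene of RN7SK, inside SLCO5A1, with 272 bases shared. Whether reads of SLCO5A1 came from it was not tested.

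In converted reads, 7 of 5732 other genes (0.122%) had a correlation of at least 0.9 with the mean profile of UNC45B, SLCO5A1 and ANKRD30BL there. The converted rows of AAMDC and PPEF2 were left out of that profile. The 5 most alike were AP4E1 (0.96), TRPV1, PDE3A, PMF1 and PID1 (0.92). PID1, a phosphotyrosine interaction domain gene, had 82.5 and 134 FPKM in the induced mutant, 37.6, 97.6 and 36.1 FPKM in the induced wild type, and 37.7, 28.2 and 29.8 FPKM in vehicle libraries. HFM1 and DLG2, above, were also among the 5 most abundant other genes, and the remaining 3 had other profiles. EEF1A1, a translation elongation factor gene, had 5513 and 7153 CPM in the induced mutant, 6811 to 8095 CPM in the induced wild type and 7881 to 9840.4 CPM in vehicle libraries, and its lowest library was induced mutant A. GAPDH had 2599 and 3317 CPM in the induced mutant, 2806 to 3684 CPM in the induced wild type and 3396 to 3898 CPM in vehicle libraries. LOC285045 was highest in a vehicle library instead, at 1031 and 994 CPM in the induced mutant, 338 to 1320 CPM in the induced wild type, and 7382, 2942 and 449 CPM in vehicle (A, B, C). HSPA8, the highest non-member in converted reads, had 372 and 471 FPKM in the induced mutant, 247 to 306 FPKM in the induced wild type and 266 to 334 FPKM in vehicle libraries. AMBRA1, NUDCD3, STMN1 and CHCHD3 followed, with maxima of 360.4, 208, 169 and 167 FPKM, each in a vehicle library.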

How the data were processed

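The 6 genes and the gene lists were chosen with earlier results of these data known. Total RNA went into an mRNA kit that keeps strand, per the labels' protocols, and the build was hg19 (GRCh37), per the submitters' processing notes. No source used here gives the aligner, the conversion caller, the counted region or the strand setting. The deposited all-read values carry the name CPM in the header and were handled as a signal per RefSeq transcript. In each library 100% of them were whole reads within 0.1 read. The authors deposited the conversion rate as a fraction and converted reads as FPKM, whose depth is unknown.

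Rows were named by accession through RefSeq (GRCh38.p14), which 60127 of 61177 rows matched, and a gene took its row with the highest mean. Positions and sequences come from RefSeq GRCh38.p14 and GENCODE 29 and were joined to the files by accession alone. Limma 3.58.1 (R 4.3.3) was run on log2(value + 1) of genes with a mean of at least 1, with all 8 libraries in 1 model, a prior spread that follows the level, and Benjamini-Hochberg adjustment at 0.05. Log2 differences of low genes are too small on this scale. The recovered reads were also tested with edgeR 4.0.16 and DESeq2 1.42.0, and limma was tested on simulated data. Sequences were aligned with blastn 2.17.0. The planned search for ribosomal RNA was limited to the sequences named with its result. Tables were made in Python 3.11.15 with pandas 2.3.3 and numpy 2.4.6, and figures with matplotlib 3.10.9.

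Named genes are the 6 genes, HMGN1, the 10 other genes most like the mean profile by CPM and the 5 by FPKM, the 5 with the longest ribosomal RNA matches, the measured genes of the ribosomal DNA, microRNA and relatives lists, up to 4 of each other list, and the 5 highest others by CPM and by FPKM. CTNNAL1, CEACAM21 and TEX101 were added after their values were seen. Alternatives were another pseudocount, no filter, centring, the replicate block, leaving out each library and other tools.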

Additional observations from a re-analysis of the deposited data

How the results depend on the processing

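The median log2 difference of the 6 genes, induced mutant minus vehicle, was 1.59 to 2.45 in all reads over the 14 alternatives run, and that of the 4 genes tested in converted reads 1.54 to 1.99. The replicate letters were not taken as pairs, since 3 of 7 same-letter pairs had a correlation of deviations over 0.1 in each table (-0.64 to 0.65 in all reads, -0.23 to 0.29 in converted reads). With the letter as a replicate block these medians were 2.10 and 1.69.

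Counts of genes over the whole table moved more. For induced mutant against vehicle in all reads the count was 4, 1 with the replicate block, 74 by DESeq2 and 0 to 13 without 1 library (0 without induced mutant A or vehicle B, 1 without induced wild type A or vehicle C, 13 without induced wild type B). For induced wild type against vehicle it was 0, 1 with the block, 2 with median centring and 2 by DESeq2. For induced mutant against induced wild type it was 4, 13 by DESeq2 and 0 to 4 without 1 library (2 without induced wild type C or vehicle C, 4 without vehicle A, 0 without each other library). In converted reads, induced mutant against vehicle had 23 genes, 1 with a pseudocount of 0.1, 149 with the replicate block, 39 with median centring, 0 with a prior spread that does not follow the level (added after seeing the data) and 0 to 68 without 1 library. Induced wild type against vehicle had 0, and 0 to 1 without 1 library, the 1 without vehicle C. Induced mutant against induced wild type had 0, 1 with a pseudocount of 0.1, and 0 to 3 without 1 library, 3 without induced wild type B and 1 without vehicle A. The causes were not tested.

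The median CV of the conversion rate was 3.99% and 6.63% with the median over the transcript rows of a gene. The count of genes with ribosomal RNA-like sequence was 0 by alignment and 1 by annotated pseudogene, added after seeing the data. Pseudogenes of the 5S and mitochondrial RNAs were not counted. Depth limits MIR663B most, with 21 to 103 reads.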
